A study of Arabidopsis thaliana with 4 samples.

Results

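The beta-tubulin genes of Arabidopsis thaliana, named TUB followed by a number, were followed in rosette leaves of wild-type plants and of plants that overexpress AAF. The members are the TUB genes that the platform's gene table assigns to a probe set of their own, with a mean signal of at least 100 over the 4 arrays and the brightest probe set taken for each gene. The rule found 5 genes, TUB1, TUB5, TUB6, TUB7 and TUB9, among 7240 named genes on the tested probe sets. The RefSeq gene table holds 9 TUB genes. The other 4, TUB2, TUB3, TUB4 and TUB8, are not analysed here. Each member had 1 probe set, so no choice between probe sets arose, and none fell under the minimum signal.

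Leaves came from 3-week-old plants kept in 16 h of light and 8 h of dark, before bolting. Col-0 is the wild type, and AAF-OX is a transgenic line in the Col-0 background in which AAF is overexpressed, with the promoter and the number of lines not given in the sources used here. There were 2 Affymetrix arrays for each genotype (n = 2), run as 2 independent sets. The replicate number was taken as the set, so that each set holds 1 Col-0 and 1 AAF-OX array. The labels do not say whether each set had plants of its own, and the spread that the p-values rest on may be technical.

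Beta-tubulin pairs with alpha-tubulin to form the dimer from which microtubules are built, and it is the subunit whose bound GTP is hydrolysed as the polymer grows. In expanding leaf cells the cortical microtubules lie under the plasma membrane and guide the complexes that spin cellulose into the wall, and in dividing cells microtubules form the preprophase band, the spindle and the phragmoplast. The genes of the family code for closely related proteins, and they are known for differing in where and when they are transcribed. TUB1 transcripts are known to be most abundant in roots, and TUB6 is widely used as a fluorescent fusion to label microtubules in living plants.

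The labelled genotype was checked first. AAF, taken here as locus AT1G66330, had signals of 760 and 1337 on the Col-0 arrays of sets 1 and 2 and of 7442 and 7706 on the AAF-OX arrays. Both AAF-OX arrays lay above both Col-0 arrays, with a log2 difference of 2.85. The leaf markers that could be read, the Rubisco activase gene RCA and the antenna protein genes LHCB4.1 and LHCB4.2 (3 of 8 listed), had signals of at least 13593 on every array. Of 5 root markers the beta-glucosidase gene PYK10 and the endoplasmic reticulum body gene NAI2 were measured, of 5 flower markers none, and of 4 meristem markers only CLV3, at 1.93 to 32.5. Each array was scaled by the authors to the same trimmed mean of 500, and the median signal over all probe sets was 169 to 180.2 per array.

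The comparison between the sets showed the larger differences in the family. TUB1, TUB5, TUB6 and TUB7 were higher in set 2 than in set 1, TUB9 was lower, and each did so in both genotypes. For all 5 genes the set 2 arrays did not overlap with the set 1 arrays, as was the case for 68.5% of all tested probe sets. In limma's fit with genotype and set as terms, 5 of 5 members passed the threshold of an adjusted p under 0.05, 4 higher and 1 lower, where 39.4% of the 13592 tested probe sets were called in either direction, 17.3% higher and 22% lower. The median log2 difference of the members was 0.39, against -0.05 over all tested probe sets. What distinguishes the sets is not given in the sources used here, and in leaf RNA fewer cells of a type cannot be told apart from less RNA per cell.

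**Figure D1:**
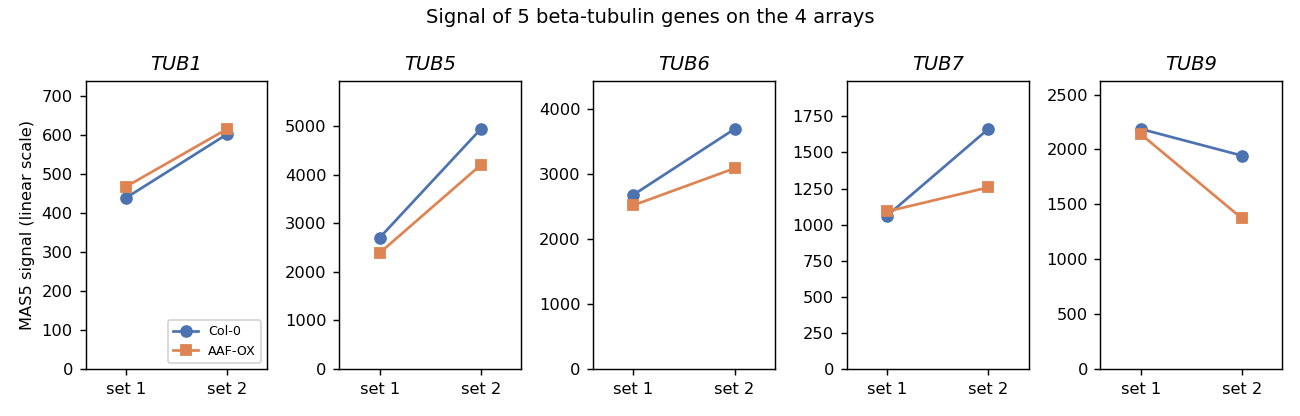
MAS5 signal (linear scale, from 0) of each of the 5 beta-tubulin genes on the 4 arrays, with set 1 and set 2 on the horizontal axis and a line joining the 2 arrays of a genotype (circles Col-0, squares AAF-OX). Signals of TUB1, TUB5, TUB6 and TUB7 go up from set 1 to set 2 in both genotypes and those of TUB9 go down.

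TUB5, on chromosome 1 (AT1G20010), had the largest set difference of the 5. Its signal was 2699.8 on the Col-0 array and 2386 on the AAF-OX array of set 1, and 4936 and 4197 on those of set 2. Both set 2 arrays were thus well above both set 1 arrays, and the Col-0 array was the higher one within each set. The set means were 2543 ± 222 and 4566 ± 523 (SD, n = 2), 1.78-fold higher in set 2 once 50 is added to each signal. The log2 difference was 0.83 ± 0.11 (SE; limma's adjusted p = 7.7e-05). The difference was 0.86 in Col-0 and 0.80 in AAF-OX. Of all tested probe sets, 12.4% had a larger set difference in either direction.

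TUB7, on chromosome 2 (AT2G29550), followed with a log2 difference of 0.41 ± 0.13 (SE; limma's adjusted p = 0.0292). Its signals were 1062 and 1091 on the Col-0 and AAF-OX arrays of set 1 and 1662 and 1258 on those of set 2. The set 1 arrays were almost alike, and the set 2 arrays were apart, so that the set difference was 0.62 in Col-0 and 0.20 in AAF-OX. This made TUB7 the member with the widest gap in set difference between the genotypes among those that rose.

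TUB1, on chromosome 1 (AT1G75780), had signals of 439 and 468 on the Col-0 and AAF-OX arrays of set 1 and of 602 and 616 on those of set 2. Within each set the 2 genotypes differed by little, and the sets were clearly apart. The set means were 453 ± 20.4 and 609 ± 9.42 (SD, n = 2), with a log2 difference of 0.39 ± 0.13 (SE; limma's adjusted p = 0.0373), 0.42 in Col-0 and 0.36 in AAF-OX. Beside this root-rich member, the root marker PYK10 also rose in set 2 (log2 1.03, limma's adjusted p = 7.6e-05), from 1075 and 629 to 1974 and 1527, while NAI2 had -0.11 (limma's adjusted p = 0.617). The summed signal of these 2 root markers, 839 to 1415 in set 1 and 1719 to 2286 in set 2, was mostly that of PYK10. NAI2 alone went from 340 and 210 to 312 and 192, with Col-0 named first. The part of the root markers in the result was not tested.

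TUB6, on chromosome 5 (AT5G12250), had signals of 2682 and 2521 in set 1 and of 3695 and 3089 in set 2, with Col-0 named first. The log2 difference between the sets was 0.37 ± 0.11 (SE; limma's adjusted p = 0.0179), 0.45 in Col-0 and 0.29 in AAF-OX. The Col-0 array was the higher one in both sets, as for TUB5.

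TUB9, on chromosome 4 (AT4G20890), was the single member that was lower in set 2. Its signals were 2186 and 2139 on the Col-0 and AAF-OX arrays of set 1 and 1944 and 1371 on those of set 2. The set 1 arrays lay close together, and in set 2 the AAF-OX array was far below the Col-0 array. The set means were 2162 ± 33.7 and 1657 ± 405 (SD, n = 2), with a log2 difference of -0.39 ± 0.13 (SE; limma's adjusted p = 0.0313), -0.17 in Col-0 and -0.62 in AAF-OX.

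In the order of set differences, TUB5 (0.83) was followed by TUB7, TUB1 and TUB6 (0.41, 0.39 and 0.37) and then by TUB9 (-0.39). The 95% intervals from limma were 0.60 to 1.06 for TUB5, 0.12 to 0.70 for TUB7, 0.10 to 0.68 for TUB1, 0.13 to 0.61 for TUB6 and -0.68 to -0.11 for TUB9. Of all tested probe sets, 38.1% had a larger set difference in either direction than TUB7, 39.7% than TUB9, 40.2% than TUB1 and 42.4% than TUB6, so these 4 differences were of ordinary size among these arrays. TUB7, TUB1 and TUB6 cannot be put in order within these intervals, and the interval of TUB5 overlaps with each of theirs, while that of TUB9 overlaps with none. Without a test, the change of TUB5 exceeded that of TUB7, TUB1 and TUB6 in both genotypes, by 0.24 to 0.44 in Col-0 and by 0.44 to 0.61 in AAF-OX. The change of TUB9 lay below that of the other 4 by 0.58 to 1.02 in Col-0 and by 0.82 to 1.42 in AAF-OX.

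Among the 5 members, TUB5 alone kept its call in each of the 12 other settings run, with a log2 difference of 0.71 to 0.95 and adjusted p up to 0.0244. TUB1, TUB6, TUB7 and TUB9 were not called without a genotype term (limma's adjusted p = 0.0539, 0.0665, 0.0875 and 0.126) or without the intensity trend of the variance (limma's adjusted p = 0.0558, 0.0689, 0.0748 and 0.0878). With 1 array left out the fit also had no genotype term, so the set difference carried part of the genotype difference. A call lost in those fits cannot be laid to the missing array alone. The log2 difference then ran from 0.35 to 0.43 for TUB1, 0.24 to 0.50 for TUB6, 0.22 to 0.60 for TUB7 and -0.64 to -0.15 for TUB9.

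**Figure D2:**
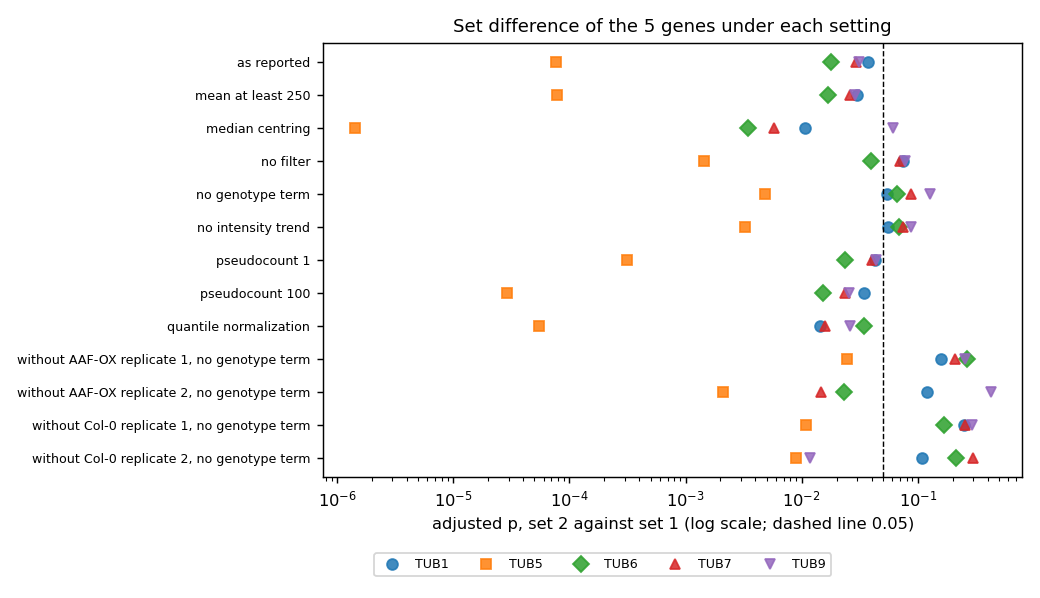
Adjusted p of the set difference (horizontal log axis, dashed line at 0.05) for each of the 5 genes in the fit as reported and under 12 other settings (vertical axis). The squares of TUB5 stay left of the line in every row, while the other genes lie right of it in at least 5 rows each.

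The study's own comparison, of AAF-OX with Col-0, addresses the effect of raised AAF expression on leaves before bolting. None of the 5 beta-tubulin genes passed the test between the genotypes, and the AAF-OX arrays overlapped with the Col-0 arrays for all 5 genes (18.7% of the tested probe sets had groups that did not overlap). In limma's fit on genotype alone 0 of 5 members passed, where the share of all tested probe sets called was 0% (117 at an unadjusted p under 0.05), AAF not called either. With the sets as a block 0 of 5 members passed, where 1.55% of all tested probe sets were called (1.34% higher and 0.206% lower in AAF-OX) and AAF was among them. At an unadjusted p under 0.05, 0 of 5 members passed in either fit, where 1495 of the 13592 tested probe sets did so with the block.

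TUB9 had the largest genotype difference of the 5, at 2065 ± 172 on the Col-0 arrays and 1755 ± 543 on the AAF-OX arrays (SD, n = 2). Its log2 difference was -0.26 ± 0.13 (SE, with the sets as a block; limma's adjusted p = 0.52), with -0.03 in set 1 and -0.49 in set 2. TUB5 had -0.20 ± 0.11 (limma's adjusted p = 0.538, block), at -0.17 in set 1 and -0.23 in set 2. TUB5, TUB6 and TUB9 were below 0 in both sets, as were 31.3% of all tested probe sets.

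TUB7 had -0.18 ± 0.13 (limma's adjusted p = 0.74, block), with 0.04 in set 1 and -0.39 in set 2, and was the single member of opposite sign in the 2 sets, as were 44.3% of all tested probe sets. TUB6 had -0.17 ± 0.11 (limma's adjusted p = 0.655, block), with -0.09 and -0.25. TUB1 had 0.06 ± 0.13 (limma's adjusted p = 0.948, block), with 0.08 and 0.03, and was the single member with a mean above 0. In the blocked fit the 95% intervals ran from -0.54 to 0.03 for TUB9, -0.43 to 0.03 for TUB5, -0.47 to 0.12 for TUB7, -0.41 to 0.07 for TUB6 and -0.24 to 0.35 for TUB1. These intervals do not reach a log2 of 1 in either direction, but they leave room for smaller differences. Without the block they were wider, the widest being -1.36 to 0.95 for TUB5.

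The genotype difference was lower in set 2 than in set 1 for all 5 members, and for 49.6% of all tested probe sets. The members' median was -0.03 in set 1 and -0.25 in set 2, where that of all tested probe sets was -0.02 in both. With 1 array per genotype in each set this change between the sets has no replicate and was not tested.

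**Figure D3:**
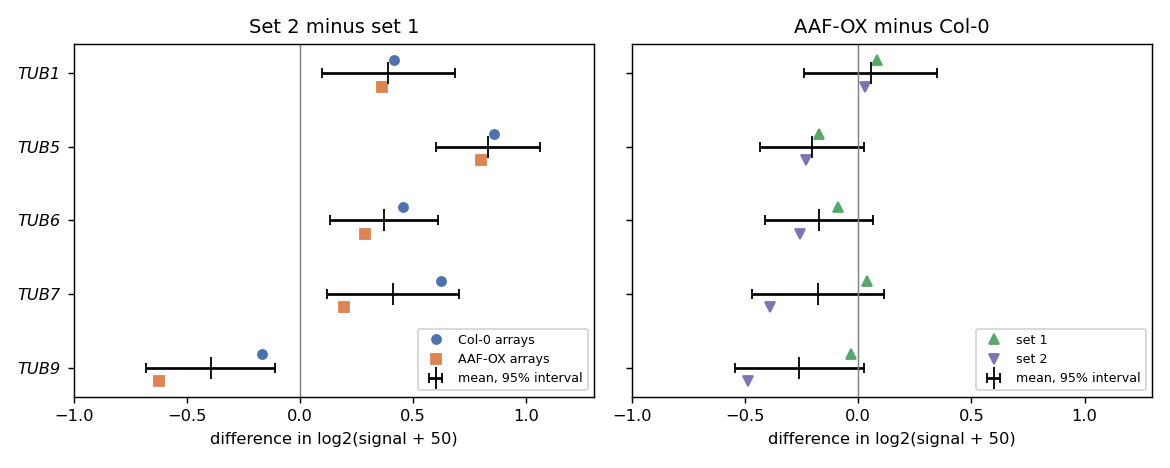
Differences in log2(signal + 50) for the 5 genes (rows), between sets in the left panel and between genotypes in the right panel. Black bars give the mean and its 95% interval from limma's fit with genotype and set, and coloured symbols give the value within each genotype (left) or set (right); the intervals in the left panel exclude 0 and those in the right panel include it.

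Genes of other tubulins, tubulin folding, microtubule-associated proteins, cellulose synthesis, actins and cell division were read from 6 lists with 88 members. Of the 88 members 19 were named and tested. Of the other tubulins, TUA6, an alpha-tubulin much used as a fluorescent microtubule label, and TUA1, an alpha-tubulin known for its expression in pollen, could be read (2 of 8 listed). TUA6 was higher in set 2, from 5794 and 4806 to 8267 and 5923 with Col-0 named first (log2 0.40, limma's adjusted p = 0.00865). TUA1 was lower, from 843 and 815 to 593 and 675 (log2 -0.36, limma's adjusted p = 0.0447). The 2 alpha-tubulins read thus held 1 gene in each direction, as the beta-tubulins held genes in both. The calls of the tubulins other than TUB5 were fragile in both directions. Without a genotype term or without the intensity trend, TUB1, TUB6, TUB7 and TUA6, all higher in set 2, lost their calls. TUA1 stayed below 0 in the 12 other settings but was called in 2 of them, and TUB9 lost its call in 7 of 12. Between genotypes TUA6 had -0.37 (limma's adjusted p = 0.118, block), with -0.27 in set 1 and -0.48 in set 2, a larger difference than that of any TUB gene, and TUA1 had 0.06.

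The folding of tubulin needs the chaperonin, prefoldin and dedicated cofactors. Of 21 genes on that list 10 were tested. Of these, 1 was higher in set 2 (AT1G24510, log2 0.34, limma's adjusted p = 0.0366), 1 was lower (AT5G16070, -0.47, limma's adjusted p = 0.00944) and 8 were not called. Among all tested probe sets 17.3% were called higher and 22% lower. The median over the 10 genes was 0.03. The cofactor genes POR (cofactor C) and PFI (cofactor E) had -0.17 and -0.16 (limma's adjusted p = 0.435 and 0.458). Among microtubule-associated proteins 3 of 31 were tested. ATMAP65-6, of the family that cross-links microtubules, was lower in set 2, from 980 and 829 to 508 and 480 (log2 -0.81, limma's adjusted p = 0.000476). SPR1, which is needed for straight growth of cells, had -0.03 (limma's adjusted p = 0.837) and the third gene, AT5G17410, had -0.01.

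Of cellulose synthesis at the primary wall 1 of 9 genes was tested. COB, a membrane-anchored protein needed for oriented cellulose deposition, was higher in set 2, from 2557 and 2465 to 4101 and 3811 (log2 0.64, limma's adjusted p = 0.000511). The actin gene ACT11, 1 of 8 tested, rose from 191 and 221 to 549 and 486 (log2 1.15, limma's adjusted p = 0.000126). Of 11 cell division genes 2 were tested, both coding for Aurora kinases of mitosis. AUR2 was higher, from 109 and 114 to 268 and 182 (log2 0.75, limma's adjusted p = 0.0097), and AUR1 had 0.39 (limma's adjusted p = 0.0736). The summed signal of AUR1 and AUR2 was 304 to 333 in set 1 and 428 to 602 in set 2. That of the 3 leaf markers was 59444 to 69061 in set 1 and 82153 to 87338 in set 2. Singly, RCA, LHCB4.1 and LHCB4.2 had log2 0.20, 0.27 and 0.82 between sets (limma's adjusted p = 0.0904, 0.0277 and 7.9e-05), so they differed in size and RCA was not called. The part of the Aurora kinase or leaf marker signal in the tubulin differences was not tested. Between genotypes none of the 19 list genes was called by limma with or without the block, where 1.55% and 0% of all tested probe sets were. Between sets 8 of the 19 list genes were called, a share close to the 39.4% of all tested probe sets. Of these 8 calls, those of ACT11, COB and ATMAP65-6 had the smallest adjusted p. These 3 calls held in each of the 12 other settings, while that of TUA1 held in 2 of 12, those of TUA6 and AT1G24510 in 6 of 12 each, that of AT5G16070 in 9 of 12 and that of AUR2 in 7 of the 11 in which it was tested.

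**Figure D4:**
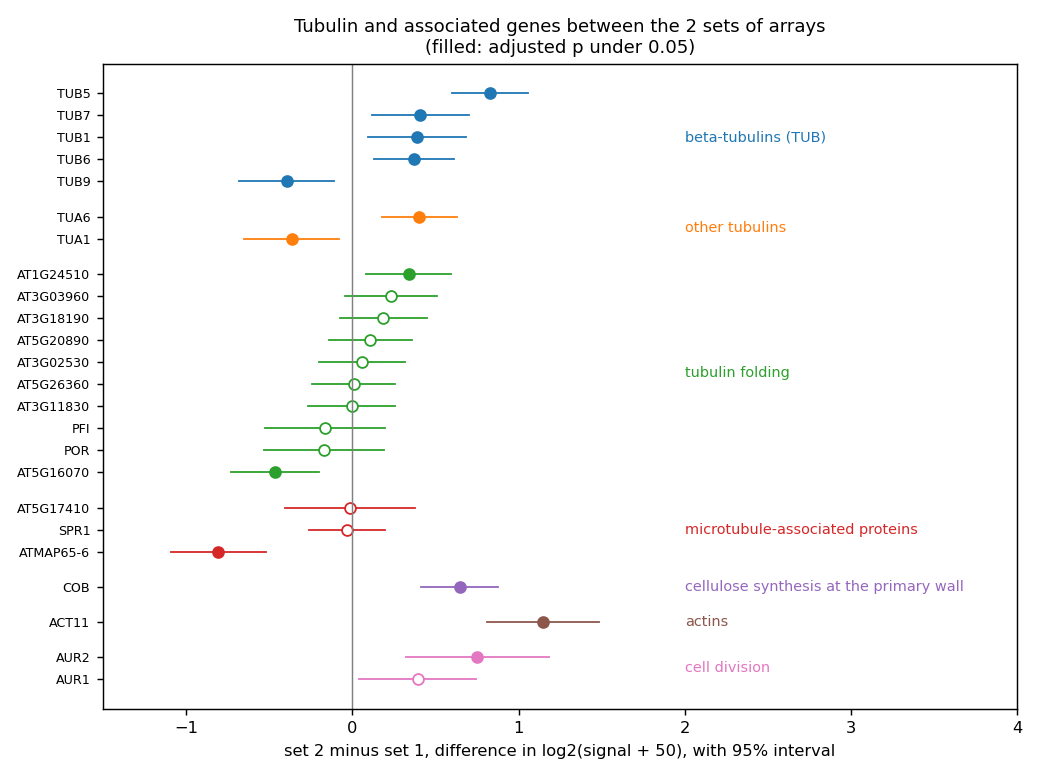
Set 2 minus set 1 in log2(signal + 50), with 95% intervals from limma, for the 5 beta-tubulin genes and 19 other genes grouped by list (colours); filled circles mark an adjusted p under 0.05. TUB9 and TUA1 lie left of 0 among the tubulins, and of the 10 folding genes 8 are open circles near 0.

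The genes whose profile over the 4 arrays was closest to the members' mean profile were UGT76C1, AT5G14610 and AT2G42300. Likeness was the root mean square distance between log2 values centred on each gene's own mean, over 4 arrays, and it was 0.0040, 0.0058 and 0.0062 for these genes. UGT76C1 had signals of 239 and 231 in set 1 and 339 and 273 in set 2. For the members themselves the distance from their own mean was 0.032 for TUB6, 0.067 for TUB7, 0.118 for TUB1, 0.259 for TUB5 and 0.366 for TUB9. TUB6 was thus nearest to the family's mean and TUB9 farthest from it. None of UGT76C1, AT5G14610 and AT2G42300 was called between sets by limma (adjusted p of 0.113 to 0.164). The mean profile joins the 4 members that were higher in set 2 with TUB9, which was lower. The 3 genes were picked as the closest of all named and tested genes outside the family, over 4 arrays only. Likeness of this kind does not show shared regulation, which was not tested.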

How the data were processed

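RNA from rosette leaves was hybridised to Affymetrix arrays by the authors. The deposited table holds intensity values on a linear scale, made with MAS5 per the submitters' processing notes, its version not being given in the sources used here, 1 array per sample and not pooled. The values show a trimmed mean of 500 on each array (2% trimmed at each end). The table has 22810 probe sets, 64 of them controls that were left out. Precision is limited by 2 arrays per group.

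Signals were taken as log2(signal + 50), with a minimum mean signal of 100 (13592 tested, 9154 left out). Differences per gene are on that scale, which understates changes of dim genes. Tests used limma 3.58.1 in R 4.3.3 (lmFit, then eBayes with its trend option; two-sided p, adjusted by Benjamini-Hochberg across the tested probe sets and called under 0.05). The genotype contrast was fitted without other terms, leaving 2 residual degrees of freedom, and with the replicate number as a block, leaving 1 beside a median of 10.7 borrowed across probe sets. The second model also gave the set contrast. Per the series' design text the arrays form 2 independent sets. Deviations of same-numbered arrays from their group means correlated at 0.856 over probe sets, and the numbers were taken to pair the arrays on both grounds.

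Names came from the platform's gene table (13513 probe sets with 1 gene, 503 with several, 8730 with none), and 13436 of the first matched the TAIR10.1 gene table. No coordinates are given because no build is named for the probes. Cross-hybridisation between the closely related tubulin genes was not tested. Members and gene lists were chosen with earlier results of these data known, and the locus of AAF comes from knowledge of the study. Named genes are all members, AAF, every tested gene of the other tubulins, up to 3 genes of each other list called between sets (or the 2 with the smallest p), and the 3 nearest profiles. List genes outside this rule that are named (POR, PFI, SPR1, AT5G17410, AUR1) were added after their values were seen. The alternatives changed the pseudocount (1 or 100), the filter (none, or a minimum mean of 250), the scaling between arrays (quantile or median), the variance trend and the model terms, or left out each array in turn.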

Additional observations from a re-analysis of the deposited data

How the results depend on the processing

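Between genotypes, the count of called probe sets rose from 0 to 210 with the replicate block. With the block it was 233 at a mean of at least 250, 373 with median centring, 18 without the filter, 21 without the intensity trend, 76 and 276 with pseudocounts of 1 and 100, and 292 with quantile normalization. No TUB member was called between genotypes in any of these fits, or with any array left out, and directions of the 5 members stayed the same except with an array left out. A fit on 3 arrays carries part of the set difference by construction. TUB1 then ran from -0.15 to 0.26, including -0.13 without AAF-OX replicate 2, TUB5 from -0.63 to 0.23 (0.20 without AAF-OX replicate 1), TUB6 from -0.40 to 0.056, TUB7 from -0.49 to 0.14 and TUB9 from -0.57 to 0.052.

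Between sets, members called went from 5 to 2 without the filter, 1 without a genotype term and 1 without the intensity trend, and to 1 to 3 with an array left out. Over all probe sets, the 5350 calls became 4227, 3996 and 4769 in those 3 settings. With median centring TUB9 alone lost its call (limma's adjusted p = 0.0609), and directions stayed the same in all 12 settings. Of 60 member values under these settings, 35 kept direction and call and 25 kept the direction and lost the call. List genes called, 8 of 19 tested, became 5 without the filter, without a genotype term and without the intensity trend, and 3 to 7 with an array left out, alternatives added after seeing the data. With an array left out, called probe sets were 2331, 2473, 3329 and 3822. Fits on 3 arrays had no genotype term, since none could be fitted with residual degrees of freedom, and a lone array was assumed to vary like the others. No member had a second probe set to compare. What else lies behind these changes was not tested. All 5 members are bright, at mean signals of 531 or more, so dim signal limits list genes more than members.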
